A study of Mus musculus with 16 samples.

Results

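The epithelial-mesenchymal transition (EMT) transcription factors were followed as 10 named genes, taken by symbol out of the 33072 genes of the table. The EMT inducers were Snai1, Snai2, Twist1, Twist2, Zeb1 and Zeb2, and the epithelial regulators were Grhl2, Ovol1, Ovol2 and Esrp1. All 10 were found in the table. RNA had been sequenced from 67NR cells, a non-metastatic line, and from 4T1 cells, a metastatic line, both derived from the same spontaneous mammary tumor of a BALB/c mouse. In each line, cells grown in DMEM with 10% FBS received either vehicle or the cytosolic phospholipase A2 alpha (cPLA2α) inhibitor CIX at 15 µM for 24 h, so that all 4 groups shared the medium and the time. Each group held 4 samples, described as biological replicates, and samples are called here by the number in their label. A pair of cell lines from 1 tumor gives 1 line per metastatic class, so a difference between the lines and a difference between metastatic classes cannot be told apart.

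EMT is the process in which epithelial cells, held together by E-cadherin and tight junctions, take on the loose, motile form of mesenchymal cells. The zinc finger factors of the Snail and Zeb families and the bHLH factors of the Twist family are known as its inducers, and Snail and Zeb proteins repress epithelial genes such as Cdh1 by binding E-box sequences in their promoters. Grhl2 and the Ovol zinc finger factors act in the opposite direction, maintaining epithelial genes and repressing Zeb genes, and Esrp1 is a splicing regulator that keeps the epithelial forms of many transcripts.

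Promoter sequences of 5 of the 10 factors were taken from the RefSeq table for mouse (build GRCm38.p6). The other factors were not covered, which does not show that they lack an entry there. The sequences of Snai1, Twist1 and Twist2 are printed because these inducers differed in their pattern between the lines. Each is given 5′ to 3′ as the 250 bases before the RefSeq start of the gene, with capitals marking an E-box of the letters CANNTG, a motif that reads the same on both strands. CACCTG and CAGGTG, the E-boxes preferred by Snail and Zeb proteins, are included in CANNTG. Snai1, 1.32-fold higher in 4T1 cells with vehicle but not called between the lines, is taken from chr2:167537945-167538194 on the plus strand.
Snai1: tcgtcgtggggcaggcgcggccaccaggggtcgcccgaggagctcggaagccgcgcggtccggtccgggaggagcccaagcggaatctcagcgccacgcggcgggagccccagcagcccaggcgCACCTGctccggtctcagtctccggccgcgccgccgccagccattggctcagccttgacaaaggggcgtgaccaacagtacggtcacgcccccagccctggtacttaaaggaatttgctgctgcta
Twist1, present in both lines but higher in 67NR cells and the only inducer called after CIX, is from chr12:33957421-33957670 on the plus strand.
Twist1: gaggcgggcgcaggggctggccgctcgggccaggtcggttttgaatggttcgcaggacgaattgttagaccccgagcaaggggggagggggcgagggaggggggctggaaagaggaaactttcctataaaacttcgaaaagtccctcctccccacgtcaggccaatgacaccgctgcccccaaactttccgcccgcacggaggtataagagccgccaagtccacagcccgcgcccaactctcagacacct
Twist2, detected at 1 TPM or more in 67NR cells but not in 4T1 cells, is from chr1:91801211-91801460 on the plus strand.
Twist2: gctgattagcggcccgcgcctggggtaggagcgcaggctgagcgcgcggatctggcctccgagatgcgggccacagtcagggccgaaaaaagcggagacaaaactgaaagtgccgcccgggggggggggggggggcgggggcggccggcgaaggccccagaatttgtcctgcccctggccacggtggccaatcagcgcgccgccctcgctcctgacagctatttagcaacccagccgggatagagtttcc
The Snai1 window held 1 E-box, CACCTG, which began 126 bases before the start, and the windows of Twist1 and Twist2 held 0. The 4 windows of Zeb2 and the window of Ovol2, which begin at RefSeq starts that can lie inside the longer GENCODE gene, held 0 as well and are not printed. Among the 32851 promoters counted from the table, 66.2% held CANNTG and 17.2% held CACCTG or CAGGTG in the same 250 bases.

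Samples held between 21715700 and 29450629 estimated counts in total, so that 3 counts, the smallest level taken as detected, lay between 0.102 and 0.138 CPM (counts scaled to library size). This floor covers counting error only. In these bulk samples, fewer expressing cells and less RNA per cell cannot be told apart. Both lines are labelled mammary carcinoma, but the epithelial markers Cdh1, Epcam, Krt8 and Krt18 together summed to between 1.05 and 3.72 TPM (the same, per transcript length) in vehicle treated 67NR cells, and to between 1899 and 2107 TPM in vehicle treated 4T1 cells. Cdh1, encoding E-cadherin, was at 0.450 ± 0.322 CPM in vehicle treated 67NR cells and at 601 ± 84.7 CPM in vehicle treated 4T1 cells (SD, n = 4 each). With CIX these levels were 0.331 ± 0.215 and 494 ± 23.6 CPM. Vim, encoding vimentin of the mesenchymal cytoskeleton, was at 5088 ± 426 CPM in 67NR and at 1117 ± 69.0 CPM in 4T1 cells with vehicle, so both lines carried it. Of the leukocyte markers, Cd68 reached 1 TPM in every sample, whereas Ptprc, Csf1r, Cd3e and Itgam stayed below 1 TPM in all of them, and the endothelial markers Pecam1, Cdh5, Kdr and Tek summed to at most 1.53 TPM.

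Under vehicle, 4 of the 6 EMT inducers were lower in metastatic 4T1 cells than in non-metastatic 67NR cells, and all 4 epithelial regulators were higher. Snai2 (Slug), Twist2 and Zeb1 were at means of 23.2 to 56.2 CPM in 67NR cells and below 1 CPM in 4T1 cells, Twist1 was lower in 4T1 but present in both, and Snai1 and Zeb2 did not pass the threshold. A gene was called at an adjusted p below 0.001 (limma-voom, Benjamini-Hochberg over 12554 tested genes), and at this threshold 46.4% of all tested genes were called, 22.7% as lower and 23.7% as higher in 4T1. Between the lines a gene was kept if it reached 1 TPM in at least 4 of the 8 samples. Snai2, Twist2, Zeb1, Ovol1, Ovol2 and Esrp1 passed this filter only through the line in which they were high, so that they had to differ, and the count of 8 called of 10 is a description. Genes whose samples did not overlap between the lines made up 65.4% of all tested genes and 9 of the 10 factors, the exception being Zeb2.

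**Figure D1:**
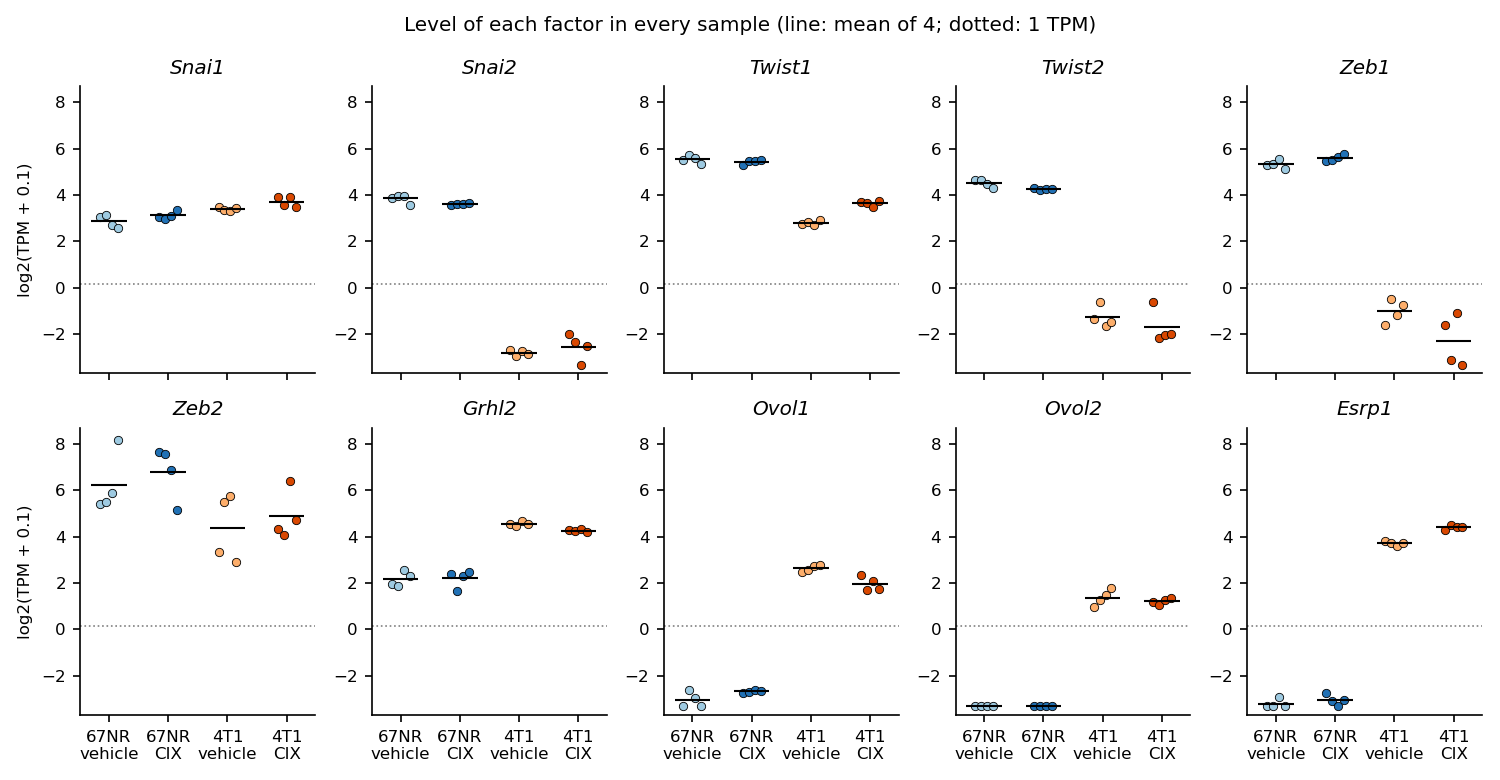
Level of each factor in each of the 16 samples, as log2(TPM + 0.1) on the vertical axis, with a line at the mean of the 4 samples of a group and a dotted line at 1 TPM. Snai2, Twist2 and Zeb1 lie above the dotted line only in 67NR cells, Ovol1, Ovol2 and Esrp1 only in 4T1 cells, and the 4 samples of a group lie farther apart for Zeb2 than for the other factors above the dotted line.

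Snai2 (ENSMUSG00000022676, GRCm38 chromosome 16, 14705852 to 14709385, plus strand) encodes the Snail family repressor Slug. With vehicle its level was 23.6, 24.8, 24.5 and 20.1 CPM in the 67NR samples 1, 5, 9 and 13, and 0.0825, 0.0438, 0.0862 and 0.0411 CPM in the 4T1 samples 3, 7, 11 and 15. The 4T1 values rest on 1 or 2 counts per sample, below the floor of 3. Summed over samples there were 2240 counts in 67NR and 6 in 4T1 cells, a ratio of 367 (95% counting interval 168 to 1000). Against a floor of 3 counts per library the ratio was 183. Under CIX the level was 19.7 ± 0.246 CPM in 67NR and 0.134 ± 0.102 CPM in 4T1 cells, with 1872 and 13 counts.

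Zeb1 (ENSMUSG00000024238) encodes the zinc finger repressor that is a major brake on Cdh1. It was at 54.0, 55.9, 64.2 and 50.8 CPM in the vehicle treated 67NR samples 1, 5, 9 and 13 and at 0.289, 0.788, 0.474 and 0.617 CPM in the 4T1 samples 3, 7, 11 and 15. No sample of one line came near those of the other, with 5425 counts against 51, a ratio of 104.5 (95% counting interval 79.3 to 140.5). Under CIX it was at 67.9 ± 4.53 CPM in 67NR cells, and in 4T1 cells at 0.324, 0, 0.537 and 0 CPM in samples 4, 8, 12 and 16. The 95% interval of the fitted line difference under CIX was wide, from −11.2 to −7.70 on the log2 scale, with 2 of the 4 samples at 0 counts.

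Twist2 (ENSMUSG00000007805, chromosome 1, 91801461 to 91848028, plus strand), a bHLH factor of mesenchymal precursors, was at 38.0, 38.0, 33.6 and 31.3 CPM in the same 67NR samples. In the 4T1 samples it was at 0.413, 0.788, 0.345 and 0.370 CPM. These 4T1 values rest on 8 to 18 counts, above the floor in each sample, so Twist2 was detectable in 4T1 but below 1 TPM. Summed over samples there were 3391 counts in 67NR and 45 in 4T1 cells, a ratio of 74 (counting interval 55.2 to 101.7).

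Twist1 (ENSMUSG00000035799, chromosome 12, 33957671 to 33959829, plus strand), the closest relative of Twist2, differed from these in being well above 1 TPM in both lines. The vehicle treated 67NR samples 1, 5, 9 and 13 had 58.8, 67.7, 60.9 and 55.5 CPM, and the 4T1 samples 3, 7, 11 and 15 had 8.13, 8.49, 8.28 and 8.89 CPM. All 67NR samples lay above all 4T1 samples, and the log2 fold change of 4T1 over 67NR was −2.89 (SE 0.10, limma-voom adjusted p = 7.16e-08). The filter of the study, which leaves out genes below 1 TPM in more than 3 of the 8 samples, kept Twist1 and Grhl2 among the 8 called factors.

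Snai1 (ENSMUSG00000042821, chromosome 2, 167538195 to 167542814, plus strand), the Snail factor, stood apart from the other inducers because its level in 4T1 cells was not below that in 67NR cells. It was at 10.6, 11.1, 8.02 and 8.05 CPM in the vehicle treated 67NR samples and at 13.4, 12.5, 12.5 and 12.4 CPM in the 4T1 samples. The groups did not overlap, but the log2 fold change of 0.40 (95% interval 0.09 to 0.70) did not pass the threshold, with a limma-voom adjusted p of 0.0245. Under CIX it was 0.55 (interval 0.20 to 0.89, adjusted p = 0.00976), again short of it.

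Zeb2 (ENSMUSG00000026872, chromosome 2, 44983632 to 45117395, minus strand), the other Zeb repressor, varied more between samples of a group than any other factor above 1 TPM. The vehicle treated 67NR samples 1, 5, 9 and 13 had 73.9, 78.6, 99.1 and 531 CPM, and the 4T1 samples 3, 7, 11 and 15 had 16.6, 73.3, 91.4 and 11.7 CPM. The lines overlapped, since the 4T1 sample 11 lay above the 67NR samples 1 and 5. The log2 fold change of 4T1 over 67NR was −2.02 (SE 0.84, limma-voom adjusted p = 0.0545), and −1.33 (adjusted p = 0.102) without sample 13. The coefficient of variation within a group was between 58.3% and 114% for Zeb2, and between 1.25% and 23.5% in the 24 group values of the other factors with a mean of 1 TPM or more.

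Pla2g4a, encoding the cPLA2α that CIX inhibits, also varied between samples of a group. It was at 60.2, 81.2, 77.1 and 325 CPM in the vehicle treated 67NR samples 1, 5, 9 and 13, at 108, 116, 176 and 128 CPM in the CIX treated 67NR samples 2, 6, 10 and 14, at 65.5, 94.6, 162 and 58.9 CPM in the vehicle treated 4T1 samples 3, 7, 11 and 15, and at 119, 107, 187 and 137 CPM in the CIX treated 4T1 samples 4, 8, 12 and 16. In 3 of the 4 groups the same sample was highest for both genes, namely 13, 11 and 12. CIX treated 67NR cells were the exception, where Zeb2 had 370, 335, 201 and 60.5 CPM in samples 2, 6, 10 and 14. Zeb2 has 29 annotated transcripts of 240 to 9124 bases, whereas Snai1, Snai2 and Twist1 have 1 each, and the part that the assignment of reads to transcripts plays in this spread was not tested.

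**Figure D2:**
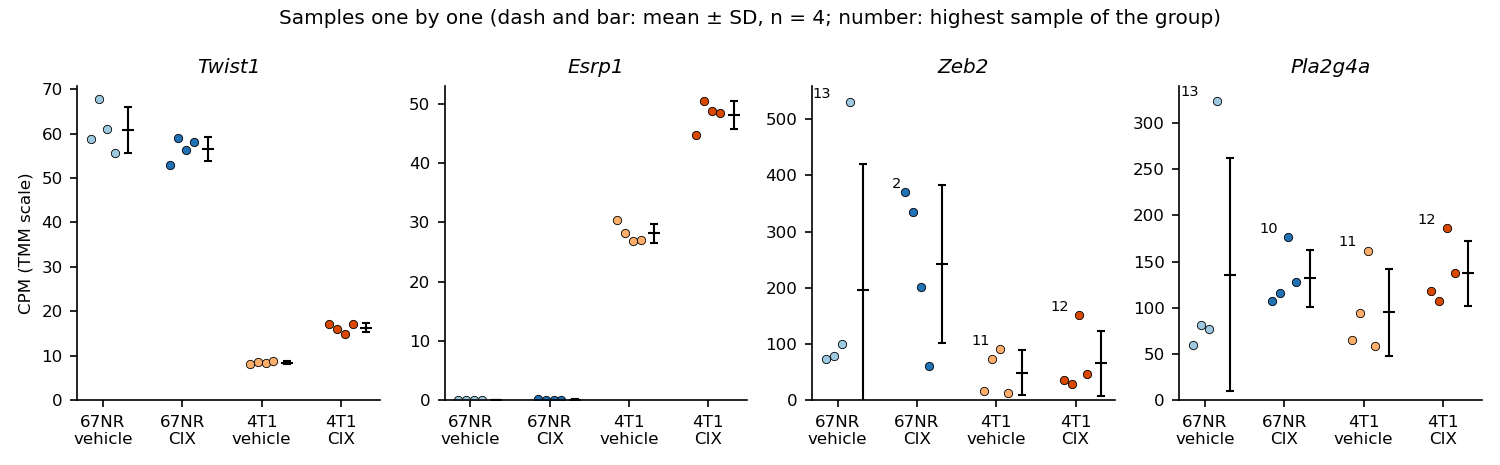
CPM of Twist1, Esrp1, Zeb2 and Pla2g4a in each sample, with a dash and bar for the mean ± SD of 4 samples (a bar that would pass below 0 ends there) and, for Zeb2 and Pla2g4a, the number of the highest sample of the group. Twist1 and Esrp1 samples lie close to their means, whereas sample 13 has 531 CPM of Zeb2 and 325 CPM of Pla2g4a.

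All 4 epithelial regulators were higher in 4T1 cells. Grhl2 (ENSMUSG00000022286, chromosome 15, 37233036 to 37363569, plus strand), the Grainyhead-like activator of Cdh1 and other epithelial genes, was at 44.6, 41.4, 50.5 and 41.8 CPM in the vehicle treated 4T1 samples 3, 7, 11 and 15. It was also detected in 67NR cells, at 7.61, 7.22, 11.6 and 10.2 CPM in samples 1, 5, 9 and 13, although the epithelial markers were near 0 there. Every 4T1 sample lay above every 67NR sample, with a log2 fold change of 2.25 (SE 0.16, limma-voom adjusted p = 1.79e-06) and a fold of 4.77 (95% interval 3.71 to 6.13).

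Esrp1 (ENSMUSG00000040728, chromosome 4, 11331933 to 11386783, minus strand) was at 30.4, 28.2, 26.9 and 27.1 CPM in the 4T1 samples, and at 0, 0, 0.0794 and 0 CPM in the 67NR samples. Together these were 2664 counts in 4T1 and 2 counts in 67NR cells, a ratio of 1356 with a 95% counting interval of 375 to 11210. Ovol1 (ENSMUSG00000024922, chromosome 19, 5549136 to 5560646, minus strand) was at 7.64, 8.01, 9.40 and 9.05 CPM in 4T1 cells, and its 806 counts there stood against 3 counts in 67NR cells, a ratio of 274 (counting interval 93.3 to 1329). The 67NR counts of both genes lay below the floor of 3 in every vehicle sample. Against a floor of 3 counts per library the ratios were 226 for Esrp1 and 68.4 for Ovol1.

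Ovol2 (ENSMUSG00000037279, chromosome 2, 144305175 to 144332146, minus strand), the known repressor of Zeb1, was the lowest of the epithelial regulators in 4T1 cells, at 1.73, 2.10, 2.54 and 2.92 CPM with vehicle. All 8 samples of 67NR cells held 0 counts. Against a floor of 3 counts per library, Ovol2 was at least 18.7-fold higher in 4T1 cells with vehicle and at least 17.1-fold higher with CIX.

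**Figure D3:**
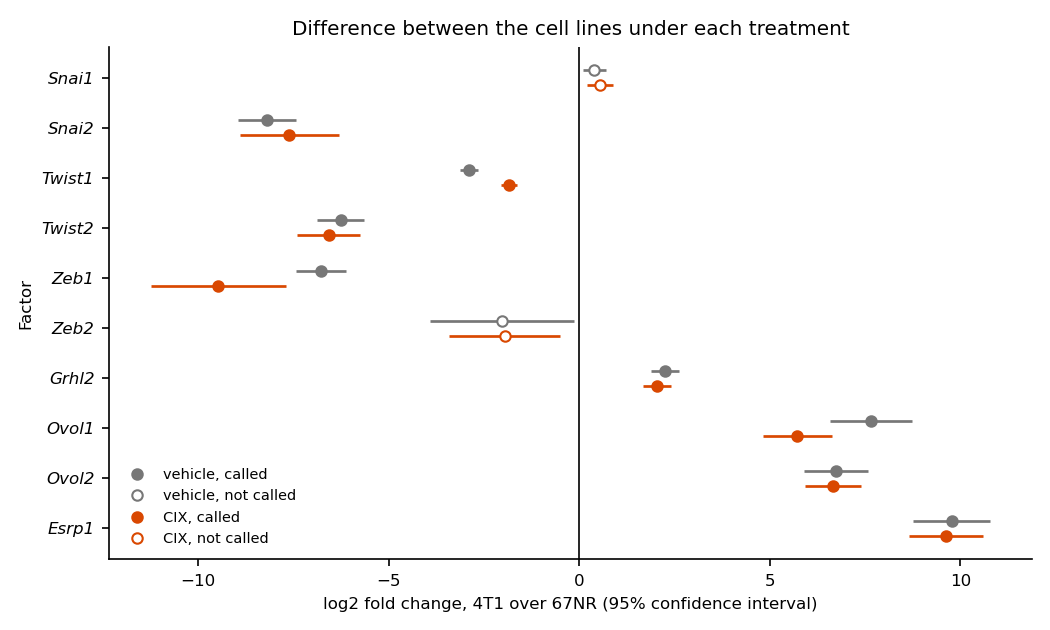
Log2 fold change of 4T1 over 67NR cells with its 95% confidence interval on the horizontal axis, for each factor under vehicle (grey) and under CIX (orange), filled where called. The Twist1 intervals under vehicle and CIX lie apart, at −2.89 and −1.84, and the points of Snai1 and Zeb2 are open. Fitted values of genes at or near 0 counts in one line depend on the prior count of the model.

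Expressed per length, as TPM, the factors also ranked differently within each line. The length of a gene was the mean over its annotated transcripts. This was 2189 bases for Zeb2 (29 transcripts of 240 to 9124) and 1736 for Zeb1 (12 of 266 to 5801). Ranks of genes with many transcripts depend on this choice, and other lengths were not tried. In vehicle treated 67NR cells Zeb2 had the highest mean (109 ± 120 TPM), followed by Twist1 (46.6 ± 5.05), Zeb1 (40.5 ± 5.21), Twist2 (22.8 ± 2.63), Snai2 (14.4 ± 1.74), Snai1 (7.28 ± 1.35) and Grhl2 (4.502 ± 1.05), with the remaining regulators below 0.1 TPM. Neighbours in this order overlapped in their samples for Zeb2 with Twist1, for Twist1 with Zeb1 and among the 3 lowest genes, and the other neighbours did not overlap. The first rank of Zeb2 rested on sample 13, without which its mean was 48.6 ± 8.25 TPM and that of Twist1 48.7 ± 3.70 TPM (SD, n = 3). In vehicle treated 4T1 cells the order was Zeb2 (28.7 ± 23.4 TPM), Grhl2 (23.3 ± 1.495), Esrp1 (13.1 ± 0.853), Snai1 (10.4 ± 0.487), Twist1 (6.89 ± 0.495), Ovol1 (6.11 ± 0.618) and Ovol2 (2.54 ± 0.620), and Zeb1, Twist2 and Snai2 were below 1 TPM. Here Zeb2 overlapped with Grhl2, Twist1 with Ovol1, and Zeb1 with Twist2. After CIX the samples of Esrp1 (21.1 ± 1.15 TPM) and Grhl2 (19.1 ± 0.908) overlapped in 4T1 cells, and so did those of Snai1 (13.0 ± 2.05) and Twist1 (12.4 ± 0.880).

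To ask whether CIX changed these factors, treated and vehicle samples were compared within each line. In 4T1 cells Twist1 and Esrp1, an EMT inducer and an epithelial regulator, both rose, by calls that ended in most fits leaving out 1 sample, and the other factors that could be tested did not pass the threshold. Of the 10 factors, 7 passed the filter on low values in 4T1 cells and 2 of them were called, where 9.28% of the 11676 tested genes were called, 5.33% as higher and 3.96% as lower. Snai2, Twist2 and Zeb1 were below the filter and were not fitted.

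Twist1 had 8.13, 8.49, 8.28 and 8.89 CPM in the vehicle treated 4T1 samples and 17.04, 16.1, 14.9 and 17.01 CPM in the CIX treated samples 4, 8, 12 and 16. Each treated sample lay well above each vehicle sample, and the log2 fold change was 0.92 (SE 0.12, limma-voom adjusted p = 0.000462), a fold of 1.90 (95% interval 1.57 to 2.29). Esrp1 had 30.4, 28.2, 26.9 and 27.1 CPM with vehicle and 44.8, 50.5, 48.9 and 48.4 CPM with CIX. Its groups were as clearly apart, with a log2 fold change of 0.76 (SE 0.10, limma-voom adjusted p = 0.000409) and a fold of 1.69 (95% interval 1.45 to 1.97). Both lay close to the threshold. When 1 of the 8 samples was left out at a time, Twist1 stayed below 0.001 only without sample 4 and Esrp1 only without sample 3 or sample 4, while their highest adjusted p in these fits were 0.00264 and 0.00241 and the log2 fold changes stayed between 0.90 and 0.97 for Twist1 and between 0.73 and 0.795 for Esrp1. Without samples 7, 8, 11, 12, 15 or 16 neither was called, and neither was with a block of 4 consecutive sample numbers in the fit (limma-voom adjusted p = 0.00111 for Twist1 and 0.00119 for Esrp1).

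Ovol1, a repressor that limits EMT in epithelia, was at 7.64, 8.01, 9.40 and 9.05 CPM in vehicle and at 7.49, 4.56, 6.27 and 4.84 CPM in CIX treated 4T1 cells. The samples did not overlap, although the CIX treated sample 4 lay close to the vehicle treated sample 3, and the log2 fold change was −0.59 (95% interval −1.02 to −0.17, limma-voom adjusted p = 0.0312), which is not called. Snai1 was at 13.4, 12.5, 12.5 and 12.4 CPM in vehicle and at 19.2, 14.9, 19.7 and 14.2 CPM in CIX treated samples, again without overlap, with a log2 fold change of 0.39 (interval 0.05 to 0.73) and an adjusted p of 0.0604. In all, 4 factors had groups that did not overlap in 4T1 cells (Snai1, Twist1, Ovol1 and Esrp1), where 39.9% of all tested genes had such groups.

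Grhl2 had a log2 fold change of −0.21 (interval −0.45 to 0.02) and Ovol2 one of −0.10 (interval −0.60 to 0.40) in 4T1 cells, which as folds were intervals of 0.734 to 1.02 and of 0.658 to 1.32. Zeb2 had a log2 fold change of 0.62 with an interval from −1.02 to 2.25, and one of 0.09 without sample 12 and of 1.095 without sample 11. For the 3 inducers near 0 in 4T1 cells, an exact two-sided permutation test of 4 against 4 samples, in which the smallest possible p is 0.0286, gave p = 0.314 for Snai2, p = 0.457 for Twist2 and p = 0.143 for Zeb1. Their levels in CIX treated 4T1 cells remained below 1 CPM in every sample.

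**Figure D4:**
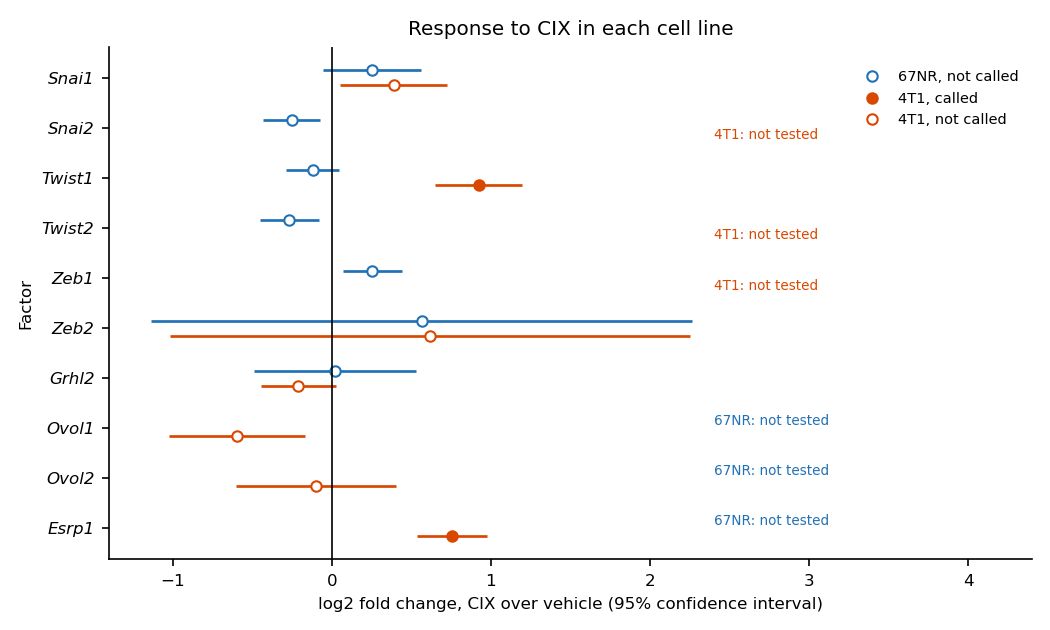
Log2 fold change of CIX over vehicle with its 95% confidence interval on the horizontal axis, for 67NR (blue) and 4T1 cells (orange), filled where called. Twist1 (0.92) and Esrp1 (0.76) in 4T1 cells are the filled points, and genes below the filter in a line are marked as not tested.

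In 67NR cells 0 of the 7 tested factors were called with limma-voom, where 0.389% of 11583 tested genes were called (0.181% as higher and 0.207% as lower), so that few genes passed limma-voom in this line at all. At an unadjusted p below 0.05, which 32.8% of all tested genes reached, there were 3 (Snai2, Twist2 and Zeb1), and edgeR's quasi-likelihood test and the Wald test of DESeq2 each called 0 of the factors, although DESeq2 called 1041 of all 11583 tested genes. Snai2 went from 23.2 ± 2.15 to 19.7 ± 0.246 CPM (n = 4 and 4, SD), which on the log2 scale was −0.25 (95% interval −0.43 to −0.07) with a limma-voom adjusted p of 0.0593. Twist2 went from 35.2 ± 3.32 to 29.6 ± 1.68 CPM, with −0.27 (interval −0.45 to −0.08) and an adjusted p of 0.0573. Zeb1 pointed the other way, from 56.2 ± 5.72 to 67.9 ± 4.53 CPM, with 0.25 (interval 0.07 to 0.44) and an adjusted p of 0.0622.

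Twist1, which rose in 4T1 cells, had 52.9, 58.9, 56.4 and 58.1 CPM in the CIX treated 67NR samples 2, 6, 10 and 14, within the range set by the vehicle samples except for sample 2. Its log2 fold change in 67NR was −0.12 (interval −0.28 to 0.05, limma-voom adjusted p = 0.303). Snai1 had 0.25 (interval −0.05 to 0.56) and Grhl2 0.02 (interval −0.49 to 0.53). Zeb2 had 0.57 (interval −1.13 to 2.27), and 1.25 (adjusted p = 0.176) without sample 13. Groups that did not overlap were seen for 2 factors (Snai2 and Zeb1) and for 23.3% of all tested genes. Ovol1, Ovol2 and Esrp1 had at most 3 counts in any 67NR sample. Ovol2 was at 0 throughout, and the exact permutation test of these few counts gave p = 0.114 for Ovol1 and p = 0.371 for Esrp1.

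The response to CIX was then compared directly between the lines by fitting all 16 samples with an interaction, for which all 10 factors could be fitted. Twist1 was the 1 factor called, with a response 1.04 higher on the log2 scale in 4T1 than in 67NR cells (SE 0.13, 95% interval 0.76 to 1.32, limma-voom adjusted p = 4.72e-05), where 7.86% of the 12629 tested genes were called, 4.81% in this direction and 3.06% in the other. At an adjusted p below 0.05, which 29.3% of all tested genes reached, 3 factors passed (Twist1, Zeb1 and Ovol1). The log2 gap in Twist1 between the lines was −2.89 under vehicle and −1.84 under CIX, and its level in CIX treated 4T1 cells (16.3 ± 1.01 CPM) was still below every 67NR sample. Leaving out any 1 of the 16 samples did not end this call, with adjusted p between 4.74e-05 and 0.000201 (limma-voom).

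Esrp1 gave no such answer, since its response in 67NR cells rests on 2 and 5 counts and the interaction was −0.18 with an interval from −1.54 to 1.18. Zeb1 had an interaction of −2.70 (limma-voom adjusted p = 0.0224) and Ovol1 one of −1.95 (adjusted p = 0.0317), both not called and both resting on a line in which the gene was near 0. On the log2(TPM + 1) scale these values were −0.56 and −0.60. There the interaction of Esrp1 was 0.62 and was called (limma adjusted p = 0.000766). Snai1 differed by 0.14 between the lines (interval −0.30 to 0.57), Grhl2 by −0.23 (interval −0.73 to 0.26) and Zeb2 by 0.05 (interval −2.38 to 2.49). These comparisons share samples with those within and between the lines above.

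The surroundings of the factors were described with lists of related genes, in which genes on in 1 line only again had to differ. Under vehicle, all 21 tested of 22 epithelial genes of adhesion, keratins and tight junctions were higher in 4T1 cells, with a median log2 fold change of 9.52, where the median of all tested genes was −0.02. Cldn4, a tight junction claudin, was at 0.140 ± 0.252 CPM in 67NR and 551 ± 80.5 CPM in 4T1 cells, Krt18 at 0.449 ± 0.788 and 1077 ± 44.2 CPM, and Epcam at 0.112 ± 0.142 and 315 ± 3.13 CPM. With CIX Epcam was at 0.0951 ± 0.116 CPM in 67NR cells. Of 10 tested of 15 mesenchymal genes, 7 were lower in 4T1 cells and 3 were not called, with a median of −2.30. Of all tested genes, 23.7% were called as higher and 22.7% as lower in 4T1 cells. N-cadherin (Cdh2) was at 159 ± 12.1 CPM in 67NR and at 0.0206 ± 0.0411 CPM in 4T1 cells, and the growth factor receptor Pdgfrb at 52.2 ± 8.32 and 0.0103 ± 0.0206 CPM. Sparc, a matrix protein, had a log2 fold change of −3.86 (SE 0.09).

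Among 9 tested of 15 other epithelial factors, 7 were higher and 1 was lower in 4T1 cells, beside 23.7% and 22.7% of all tested genes. Esrp2, the paralog of Esrp1, was at 0.0694 ± 0.139 CPM in 67NR and 67.1 ± 48.3 CPM in 4T1 cells, and Elf3 at 0.0608 ± 0.0942 and 47.7 ± 5.00 CPM. Klf4, which is also a pluripotency factor, was the one lower, from 94.4 ± 16.0 to 13.5 ± 3.51 CPM. Of 10 tested of 14 other EMT-linked factors, 4 were lower and 2 higher in 4T1 cells. Prrx1, a homeobox factor of mesenchyme, was at 211.5 ± 3.88 CPM in 67NR and 0.404 ± 0.109 CPM in 4T1 cells, while Hmga2 (log2 fold change −1.75) and Fosl1 (−1.31) were present in both lines. Foxc2 ran against the inducers, at 0 in all 4 vehicle treated 67NR samples and at 9.37 ± 2.05 CPM in 4T1 cells, and so did Sox4 with a log2 fold change of 1.80 (SE 0.09).

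The Id proteins, which bind bHLH partners and keep them from DNA, were divided. Id1 was higher in 4T1 cells (log2 fold change 1.46) and Id2 lower (−2.16), and Id3 was not called. Of 14 corepressors and stability regulators of Snail and Zeb proteins, all tested, Btrc, a ubiquitin ligase subunit, was higher (0.78) and the corepressors Ctbp1 (−1.13) and Ctbp2 (−0.58) were lower, a smaller share than the 46.4% called among all tested genes. Under CIX Foxc2 (8.05), Sox4 (0.57), Prrx1 (−10.1), Fosl1 (−1.75) and Hmga2 (−1.44) were called in the same directions as under vehicle, as were Klf4 (−3.41), Id1 (1.65), Id2 (−2.70) and Btrc (0.92), and the histone demethylase Kdm1a (0.91) and the deacetylase Hdac2 (0.40) were called as higher in 4T1. Ctbp1 (−0.72, limma-voom adjusted p = 0.00820) and Ctbp2 (−0.49, adjusted p = 0.00446) were not called under CIX. In that comparison 42% of all 12415 tested genes were called, 21.7% as higher and 20.3% as lower, and 8 of the 10 factors, the same 8 as under vehicle. The samples of 9 factors did not overlap between the lines under CIX, nor did those of 61.9% of all tested genes.

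In 4T1 cells treated with CIX, 2 of the 5 tested of 15 mesenchymal genes rose, where 5.33% of all tested genes were called as higher. The median log2 fold change of these 5 was 0.95, and that of all tested genes was −0.01. The rest of the list was below the filter on low values, so these values do not cover it. There, means of Tagln (1.21 to 0.278 CPM) and Col1a2 (1.25 to 0.259 CPM) were lower with CIX, and that of Col1a1 (1.01 to 1.09 CPM) was higher. Vim rose from 1117 ± 69.0 to 2674 ± 183 CPM (log2 fold change 1.24, SE 0.08, limma-voom adjusted p = 4.27e-05), and Sparc from 107 ± 13.1 to 223 ± 16.4 CPM (1.04, SE 0.11, adjusted p = 0.000154). Among 21 tested epithelial genes 1 rose and 1 fell, with a median of −0.08, a share near the 9.28% called among all tested genes. At an adjusted p below 0.05, 3 were higher and 7 lower, where 2561 and 2423 of all 11676 tested genes were. Not called were Cldn7 (−0.87, limma-voom adjusted p = 0.00132), Marveld3 (−0.72, 0.00182) and Ocln (−0.72, 0.00579). In the other direction, Krt19 (0.68, limma-voom adjusted p = 0.00374) and Krt7 (0.45, 0.00529) were not called either. Tjp3, a tight junction scaffold, rose from 2.72 ± 0.110 to 8.64 ± 2.34 CPM and Epcam fell from 315 ± 3.13 to 186 ± 11.9 CPM, by 0.78 on the log2 scale. Cdh1 had a log2 fold change of −0.29 (interval −0.54 to −0.04, limma-voom adjusted p = 0.0592), which is not called.

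Of the other epithelial factors Foxa1, a pioneer factor of luminal cells, fell by 1.78 on the log2 scale, from 9.94 ± 1.49 to 2.95 ± 0.684 CPM. It was 1 of 9 tested, a share near the 9.28% called among all tested genes. Elf3 (0.70, adjusted p = 0.00164), Klf5 (0.78, adjusted p = 0.00229) and Grhl3 (0.92, adjusted p = 0.0046) had values in the other direction close to the limma-voom threshold. Id2 fell by 1.49, from 12.5 ± 2.06 to 4.499 ± 0.794 CPM, and Kdm1a, a demethylase recruited by Snail, rose by 0.87, from 81.4 ± 9.17 to 151 ± 21.3 CPM. They were 1 of 3 tested Id genes and 1 of 14 corepressors and stability regulators, the latter share below the 9.28% of all tested genes. Id2 was also at 53.9 ± 7.48 CPM with vehicle and 28.6 ± 4.73 CPM with CIX in 67NR cells (log2 fold change −0.94, limma-voom adjusted p = 0.00305, not called), and its response did not pass the test of a difference between the lines (adjusted p = 0.118). Of the 9 tested other EMT-linked factors, Runx2, a factor of bone and breast cancer cells, had the lowest limma-voom adjusted p (0.0111, log2 fold change 0.88), which is not called. Cd68, the leukocyte marker that was present, also rose with CIX, from 69.0 ± 15.2 to 165 ± 29.8 CPM in 4T1 cells and from 8.84 ± 2.00 to 37.5 ± 2.82 CPM in 67NR cells. Ptprc, the defining marker of leukocytes, stayed below 1 TPM in all samples, and the part of Cd68 in the other changes was not tested.

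In 67NR cells Sox4 was the 1 gene called among the lists of factors, Id proteins, corepressors, epithelial genes and mesenchymal genes, rising from 42.9 ± 2.91 to 98.4 ± 6.98 CPM (log2 fold change 1.18, SE 0.07, limma-voom adjusted p = 0.000296). No gene of the whole table was called in 67NR cells by limma-voom with the block or without sample 5, 6, 9, 10 or 14, so that this call ended there. Vim was at 5088 ± 426 and 7696 ± 461 CPM in 67NR cells with vehicle and CIX (0.58, limma-voom adjusted p = 0.00134), just short of the threshold. The 10 tested mesenchymal genes had a median of −0.36 in 67NR cells. Pdgfrb was at −0.76 (adjusted p = 0.00425), Sparc at −0.33 (adjusted p = 0.00636), S100a4 at −0.77 (adjusted p = 0.0255) and Tagln at −1.33 (adjusted p = 0.0745, limma-voom), also not called. Fn1 (0.37, limma-voom adjusted p = 0.146) and Cdh2 (0.10, 0.418) had values in the other direction, as did Vim. At an adjusted p below 0.05, 1 gene of this list was higher and 3 were lower, where 985 and 1071 of all 11583 tested genes were. The response of Sox4 differed between the lines by −1.25 (SE 0.12), being 154.9 ± 12.6 CPM with vehicle and 149.5 ± 11.8 CPM with CIX in 4T1 cells. The mesenchymal genes Sparc (1.37), Col5a1, a fibrillar collagen chain (1.25), and Vim (0.66) had a higher response in 4T1 than in 67NR cells. They were 3 of 10 tested, where 4.81% of all tested genes were called in this direction. Col1a2 had −1.82 (limma-voom adjusted p = 0.0220), the 1 gene of the list lower at an adjusted p below 0.05.

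**Figure D5:**
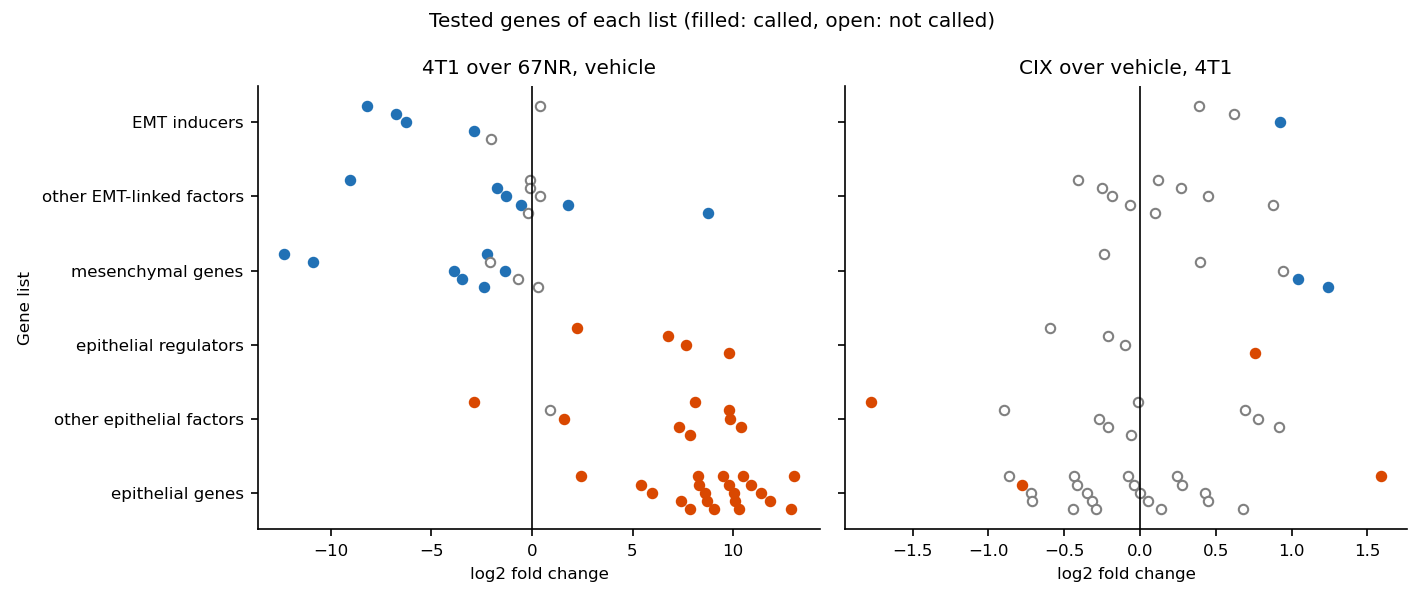
Log2 fold change of each tested gene of 6 gene lists, for 4T1 over 67NR cells under vehicle on the left and for CIX over vehicle in 4T1 cells on the right, filled where called. All 21 epithelial genes lie to the right of 0 in the comparison of the lines. In the comparison with CIX the filled points are Twist1, Vim, Sparc, Esrp1 and Tjp3 to the right of 0, and Foxa1 and Epcam to the left.

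To describe which genes were most like each factor, Pearson correlations of log2(CPM + 0.5) were taken over the 16 samples against 12628 genes. These samples share 2 lines and 4 groups, so that any gene on in the same line correlates. Snai2 was most like the matrix protein gene Fbln1 (r = 0.999), Twist2 like Gm2115 (0.998), Zeb1 like the sulfatase gene Arsj (0.997), Ovol1 like the plexin Plxnb1 (0.998), Ovol2 like Paqr8 (0.997), Esrp1 like Cdyl (0.999) and Grhl2 like the keratin Krt18 (0.987), and for each of these between 756 and 1219 genes had an r above 0.95.

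Twist1 was most like Ptgs1, encoding cyclooxygenase 1, which acts on the arachidonic acid that cPLA2α releases (r = 0.995, with 650 genes above 0.95). Ptgs1 was at 601 ± 37.2 and 509 ± 32.9 CPM in 67NR cells with vehicle and CIX, and at 124 ± 5.38 and 189 ± 16.0 CPM in 4T1 cells. Snai1 had 0 genes above 0.95, its nearest being the ubiquitin ligase gene Mgrn1 (0.912), at 76.8 ± 9.59, 88.3 ± 2.45, 93.9 ± 5.68 and 121 ± 10.3 CPM in 67NR vehicle, 67NR CIX, 4T1 vehicle and 4T1 CIX. Zeb2 had 1, the splicing factor gene Snrnp70 (0.954), which also varied within groups, with 233 to 465 CPM in vehicle treated 67NR cells.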

How the data were processed

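RNA of 16 samples (TruSeq Stranded mRNA) was quantified by the authors with Salmon 0.12 (per the submitters' processing notes) and summed per gene with tximport, and the deposited values are estimated counts, of which 0.0436% of those above 0 are whole. The notes list the human build GRCh38, whereas the gene identifiers are mouse and the paper's methods give GRCm38. Of 33072 genes, 32832 matched the GENCODE annotation of GRCm38, whose mean transcript length was used to approximate TPM. The count scaling of tximport is not given in the sources used here. The smallest count above 0 of 5395 genes with 1 transcript had medians of 0.971 to 0.985 in 4 classes of transcript length, and counts were taken as unscaled. TPM, and the filters and ranks that use it, rest on this. Counts were rounded, scaled by TMM (edgeR 4.0.16) and tested with limma-voom (limma 3.58.1, R 4.3.3) at a Benjamini-Hochberg adjusted p below 0.001 over all tested genes. Within a line, genes below 1 TPM in more than 3 of 8 samples were left out, between lines those reaching 1 TPM in fewer than 4 of 8, and for the interaction those failing the first filter in both lines. CPM refers to the TMM scale.

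Salmon assigns reads to transcripts by a model, so shared sequence can move counts between genes. The share of 31-base words found also in other genes was 0 for Snai1, Twist1, Twist2 and Ovol1 and at most 2.92% (Snai2) for the other factors. Total counts per sample were between 21715700 and 29450629. Intervals on counts cover counting error only. No pair of samples within a group repeated another (24 pairs). The paper's methods call the samples biological replicates without saying what separates them, so p-values measure the spread between these samples.

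The factors and gene lists were chosen with earlier results of these data known. Named list genes were up to 3 called in each direction with the largest change in each list and comparison, beside Cdh1, Epcam, Vim and Pla2g4a in every group and the gene most like each factor. Some genes of the lists are not reported here. Runx2, Id3, Elf3, Klf5, Grhl3, Cldn7, Marveld3, Ocln, Krt7, Krt19, Tagln, Col1a1 and Col1a2 were named after their values were seen. So were Pdgfrb, Sparc, S100a4, Fn1 and Cdh2 in 67NR cells. Alternatives were edgeR's quasi-likelihood test, DESeq2 1.42.0, other scalings, filters and thresholds, sample quality weights, a fit of all samples, log2(TPM) with 2 pseudocounts, leaving out each sample, and a block of 4 consecutive sample numbers, chosen after seeing the data. Methods were tested on simulated data.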

Additional observations from a re-analysis of the deposited data

Results flagged for a closer look

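A sample was set apart from the other 3 of its group by Dixon's test in 7 of the 38 groups of values tested, where chance gives about 1 in 20, or 1.9. Zeb2 was at 531.2 CPM in the vehicle treated 67NR sample 13 (the others at 73.9 to 99.1) and at 150.8 CPM in the CIX treated 4T1 sample 12 (28.5 to 46.4). Twist2 was at 32.08 CPM in the CIX treated 67NR sample 2 (28.6 to 28.9). In 4T1 cells Twist2 was at 0.7877 CPM in the vehicle treated sample 7 (0.345 to 0.413), on 18 counts, and at 0.85 CPM in the CIX treated sample 4 (0.172 to 0.242), on 21 counts. Snai1 was at 13.41 CPM in the vehicle treated 4T1 sample 3 (12.4 to 12.5). Esrp1 was at 0.07939 CPM in the vehicle treated 67NR sample 9, on 2 counts, with the others at 0. Any count beside 3 zeros would be set apart in this way, and the value is below the floor of 3 counts.

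The response of Twist1 to CIX differed between the lines by 1.039 on the log2 scale by the interaction term, higher in 4T1 than in 67NR cells.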

How the results depend on the processing

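No 2 groups share a sample number in the labels. A replicate block of 4 consecutive sample numbers, 1 of each group, was added after seeing the data. Samples of such a set did not deviate together throughout (correlations of deviations −0.229 to 0.322, 6 of 24 pairs above 0.1, own set highest in 10), but vehicle and CIX treated 4T1 samples of a set had 0.322, 0.0517, 0.271 and 0.133. With the block 0 factors were called after CIX in 4T1 cells (Twist1 0.93, limma-voom adjusted p = 0.00111, and Esrp1 0.76, adjusted p = 0.00119), the interaction of Zeb2 was −0.0573, and the number of factors called in the other comparisons was as without it. Over all genes, the block gave 1143 calls in 4T1 and 0 in 67NR cells.

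The number of factors called after CIX in 4T1 cells was 2, and 1 (Twist1) with log2(TPM + 1) or log2(TPM + 0.1), where Esrp1 had adjusted p = 0.00126 and 0.00120 (limma), and 3 (Ovol1 added) at an adjusted p below 0.05. Leaving out 1 sample gave 0 to 2. Between the lines 8 became 2 (Twist1, Grhl2) with the study's own filter, which removes genes on in 1 line only, and 9 under vehicle and 10 under CIX at 0.05. For the interaction 1 became 2 with quality weights (Zeb1 added, −3.95) or log2(TPM + 1) (Esrp1 added), and 3 at an adjusted p below 0.05 (Zeb1 and Ovol1 added). Over the alternatives that kept all samples the interaction lay between −3.95 and −0.56 for Zeb1 and between −1.997 and −0.60 for Ovol1, smallest with log2(TPM + 1). In 67NR cells the number was 0 under each alternative run.

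Signs turned for values not called in the main analysis, and after the turn Esrp1 was called with log2(TPM + 1). Grhl2 in 67NR cells had −0.0362 with quality weights and −0.0754 to 0.205 when 1 sample was left out, and Ovol2 in 4T1 cells −0.23 to 0.0163. For the interaction, Zeb2 had −0.96 with quality weights, −0.0811 with log2(TPM + 1), −0.0530 with log2(TPM + 0.1) and −0.61 to 0.53 with 1 sample left out. Esrp1 had 0.0743, 0.62, 0.51 and −0.745 to 0.22 in the same order, Twist2 0.14 with log2(TPM + 1), and Ovol2 −0.24 to 0.0142 with 1 sample left out. The cause was not tested.

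Over all genes, 1084 were called after CIX in 4T1 cells, but 3096 with DESeq2, 2688 in the fit of all samples, 2523 with quality weights, 4984 at 0.05 and 286 (without sample 7) to 1046 with 1 sample left out. In 67NR cells 45 became 1041, 151, 247, 2056 and 0 to 69, and 27 on either log2(TPM) scale. For the interaction 993 became 1981 with DESeq2, 1915 with quality weights, 3701 at 0.05 and 652 to 1071. Between the lines 5827 and 5209 became 8913 and 8433 at 0.05. The share called as higher went from 57.4% to 45.7% and 45.6% in 4T1 cells, and from 61.1% to 47.4% and 48.3% for the interaction, on the log2(TPM) scales.

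The responses to CIX of Snai2, Zeb1 and Twist2 in 4T1 and of Ovol1, Ovol2 and Esrp1 in 67NR cells rest on 0 to 21 and 0 to 3 counts per sample.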
